A study of Homo sapiens with 24 samples.

Results

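The comparison described here is the response to FOXP1 silencing in activated B-cell-like (ABC) against germinal center B-cell-like (GCB) diffuse large B-cell lymphoma (DLBCL) lines. It used all 24 arrays of the 24 in the series, and 16661 of the 30142 genes on the array met the brightness rule given below. DB and K422 stood for GCB-DLBCL and HBL-1 with OCI-Ly3 for ABC-DLBCL, so each subtype was represented by 2 established human cell lines and not by tumors. Every line was nucleofected separately with siFOXP1_308 (here siFOXP1 #1), siFOXP1_309 (siFOXP1 #2) or a non-silencing siRNA (siCtrl) and harvested at 48 h, in 3 independent experiments. RNA from silenced cells (Cy3) was hybridized with RNA from siCtrl cells of the same line (Cy5) on each array, which gives 6 arrays a line. All values are log2 of siFOXP1 over siCtrl, so that a positive value is higher on silencing. A response is the mean of a line's siRNAs, and a difference is the mean response of HBL-1 and OCI-Ly3 minus that of DB and K422. As whole cultures were measured, fewer cells of a kind and less RNA per cell cannot be told apart.

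FOXP1 is a forkhead transcription factor that can repress or activate its targets and that takes part in B-cell development. GCB-DLBCL resembles germinal center B cells, whereas ABC-DLBCL resembles B cells on the way to plasma cells and depends on chronic NF-kB signaling. MHC class II molecules are alpha and beta chain pairs that present peptides to CD4+ T cells. CD74, the invariant chain, escorts them, HLA-DM loads the peptide and HLA-DO restrains HLA-DM, and the coactivator CIITA switches the genes on through factors bound at the X and Y boxes of their promoters.

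Marker levels in the siCtrl channel were compared with the labels. All 7 B-cell markers were well above background in every line. The ABC markers, among them IRF4, CCND2 and PIM1, were higher in the ABC line of both scans for 7 of 7 genes. Of the GCB markers 5 of 6 were lower in the ABC line of both scans, the exception being LMO2. Of 4 T-cell markers 3 in K422, 1 in each ABC line and 0 in DB were above background on most arrays, and CD3D and CD3G were so on 6 of 6 K422 arrays and on 0 arrays of the other lines. Of 3 myeloid markers, 1 or 2 were above background in each line.

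DB and OCI-Ly3 were scanned in one session (scan 1) and K422 and HBL-1 in another (scan 2), so OCI-Ly3 minus DB and HBL-1 minus K422 are the differences within a scan. Both channels were well above background for 53.7% to 60.3% of an array's probes. The spread of log2 ratios over the genes kept had an SD of 0.276 to 0.531, and the widest array was DB siFOXP1 #1 replicate 3.

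FOXP1 itself was lower on every array after silencing. Its log2 response was -2.00 ± 0.79 (SD, n = 6 arrays, DB), -1.34 ± 0.47 (K422), -1.74 ± 0.55 (HBL-1) and -1.96 ± 0.54 (OCI-Ly3). Each SD pools the arrays of both siRNAs, so it includes any difference in knockdown between siFOXP1 #1 and #2. The SE of the fit rests on the spread within each line and siRNA. The arrays ran from -2.71 to -0.95 in DB, from -1.80 to -0.83 in K422, from -2.50 to -1.09 in HBL-1 and from -2.51 to -1.39 in OCI-Ly3, so the subtypes overlapped. The difference between subtypes was -0.18 ± 0.08 (SE) and missed the threshold (limma, adjusted p = 0.160). OCI-Ly3 minus DB was 0.03 and HBL-1 minus K422 was -0.40. The probe lies at chr3:71091098-71091157 in hg18, the build of the array files.

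On silencing, the ABC lines showed a higher response than the GCB lines for genes including 13 of 17 of MHC class II and CD74. Also among these genes were 4 of 8 on the Fc receptor-like list, which holds FAIM3 too, and 6 of 31 cytokines and receptors. LTB had the largest higher difference among genes measured in every line. The ABC lines showed a lower response for a smaller group, in which probes at the LPP locus had the largest differences among genes measured in every line. A call required a Benjamini-Hochberg adjusted p under 0.05 in limma, a difference of at least 0.5 and the same sign in both scan pairs. The gene had to be well above background in both channels on at least 4 of 6 arrays of a line of each subtype. In all, 195 genes were called higher (1.17% of the 16661 genes kept) and 93 lower (0.558%), 288 in either direction (1.73%). The median difference was 0.67 among the higher and -0.59 among the lower genes, and 29 and 8 genes differed by at least 2-fold. The SD of the difference over all genes kept was 0.20. Of the called genes 109 and 34 were well above background in all 4 lines.

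Of the 86 called genes named here, 15 had a channel not well above background on all 6 arrays of a line, so that the size of their difference was not measured in full. They were FCRL5, CD38, CD44, EBI3 and RGS12 for K422, HLA-DQB1, IL13RA1, FAIM3, SLC2A3 and VLDLR for DB, FCRL3, EGR1 and THC2551927 for OCI-Ly3, ARHGEF6 for K422 and HBL-1, and HLA-DQA1 for DB and OCI-Ly3. A further 12 had a channel above background on only 1 to 3 arrays of a line, among them FGR, SLAMF1, CD27, AK123506 (OCI-Ly3), CD69, GBP4, HLA-DQA2, HLA-DQB2 (DB), BMF (K422), LHFPL2 and AL080232 (HBL-1). Under normexp background correction 8 fell under 0.2 in size in at least 1 of both settings, namely SLAMF1 (0.17 with loess, 0.14 with median centering), RGS12 (-0.07 and -0.18), BMF (-0.05 and -0.23), ARHGEF6 (0.05 and 0.06), SLC2A3 (0.08 and 0.06), CSF1R (0.15 and 0.13), CD44 and EBI3. Both siRNA arrays of a replicate share a siCtrl sample. With each replicate as 1 value (12 values), 19 of the 86 were no longer called, among them 5 MHC class II genes, CD69, IL13RA1, OAS1, CD27, PAG1, PHGDH, MT1E, CD180 and CSF1R.

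These tests treat the arrays of a line as samples of its subtype, which holds only 2 lines. With the line means as 4 values, no gene passed in limma (lowest adjusted p = 0.935), and 170 genes kept had an unadjusted p under 0.05 with a difference of at least 0.5. The calls below therefore describe these 4 lines.

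**Figure D1:**
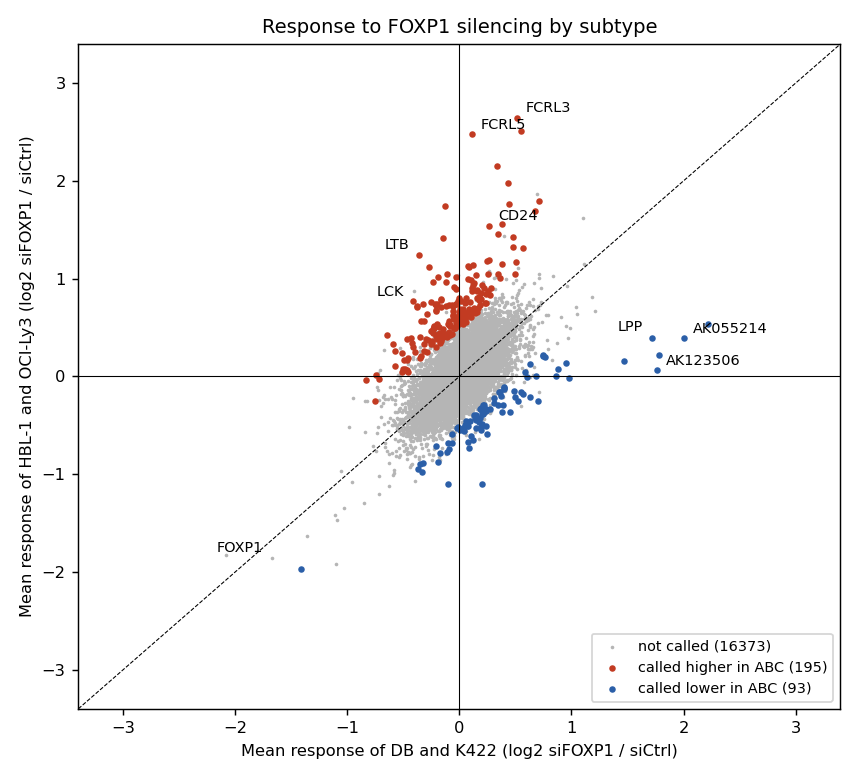
Mean log2 response of DB and K422 (x axis) against that of HBL-1 and OCI-Ly3 (y axis) for the 16661 genes kept, with the 195 genes called higher in ABC in red and the 93 called lower in blue. FOXP1 lies near the dashed line of equal response, FCRL5 and FCRL3 far above it, and LPP with its neighbors far below it.

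Most higher genes had a called rise in the mean of the ABC lines, whereas most lower genes had no called fall there. A missing call does not mean that a gene was unchanged. Of the 195 higher genes, 129 rose in the ABC lines with no call in the GCB lines, 11 fell in the GCB lines alone, 49 were called in neither subtype on its own, and 6 rose in both. Among the 6 were FCRL3, LHFPL2, GRAMD1C, MAP1LC3A and LOXL2, named after their values were seen. HBL-1 rose for 139 of the 195, OCI-Ly3 for 98, and both for 74, whereas K422 fell for 23 and DB for 10. The 93 lower genes divided otherwise, since 31 fell in the ABC lines alone, 21 rose in the GCB lines alone and 39 were called in neither subtype. Over all genes kept, 3.32% rose and 1.84% fell in the ABC mean and 1.02% and 0.714% in the GCB mean. By line, HBL-1 had 7.3% rising and 4.77% falling, OCI-Ly3 2.55% and 1.25%, K422 2.07% and 1.97%, and DB 1.31% and 0.654%. Tested with siFOXP1 #1 alone, 53 of the 195 and 21 of the 93 were called, and with siFOXP1 #2 alone 126 and 40. The genes nearest to the fold limit were MT1L (-0.50) and CR603803 (-0.50) inside it and THC2633136 and FAM65A (both 0.50 after rounding) outside it.

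HBL-1 minus K422 was the larger of the scan pair differences for 130 of the 195 higher and 68 of the 93 lower genes. Tested alone, OCI-Ly3 minus DB gave 165 higher (0.99%) and 79 lower genes (0.474%), and HBL-1 minus K422 gave 462 (2.77%) and 342 (2.05%). Both pairs called 45 genes higher, which is 27.3% of the OCI-Ly3 minus DB calls and 9.74% of the HBL-1 minus K422 calls. They called 13 lower, 16.5% and 3.80%. Among all genes kept 55.4% had the same sign in both pairs, and the pair differences had Pearson and Spearman correlations of 0.15 and 0.15 across genes, which are not independent replicates. Slides holding both subtypes existed in each scan, with 4 arrays each. Within slide 2 (DB replicate 3 and OCI-Ly3 replicate 1) 162 of the 195 higher and 82 of the 93 lower genes kept their sign, and within slide 4 (K422 replicate 3 and HBL-1 replicate 1) 189 and 91 did. These arrays are among those that made the calls, and of all genes kept 59.7% and 74.1% had the sign of their own difference within slide 2 and slide 4.

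**Figure D2:**
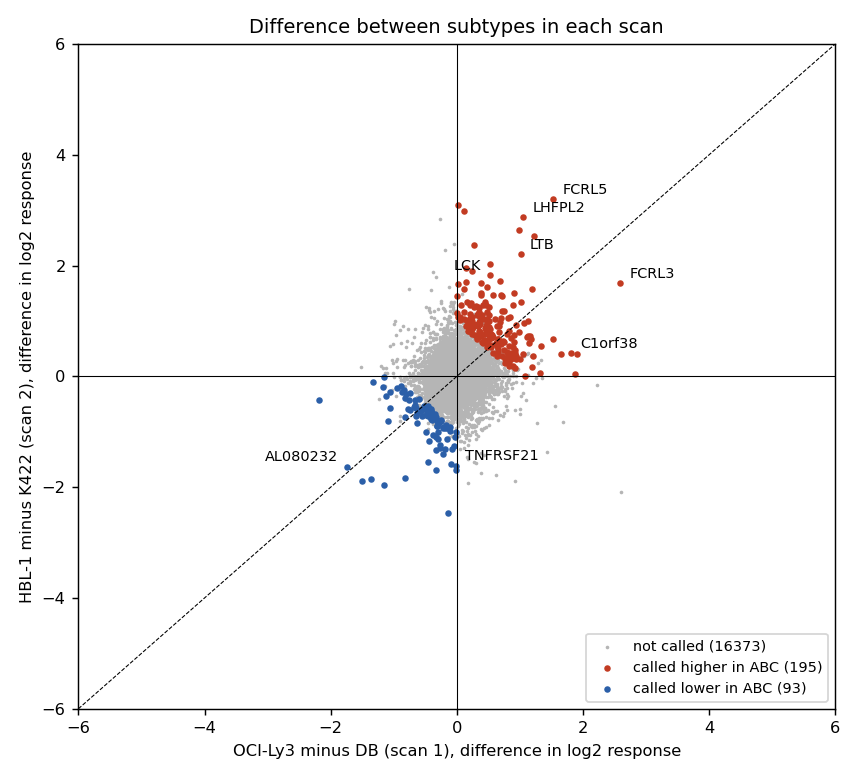
Difference in log2 response between the ABC and the GCB line of scan 1 (x axis, OCI-Ly3 minus DB) and of scan 2 (y axis, HBL-1 minus K422) for the genes kept, with called genes colored. By the sign rule called genes lie to the upper right or the lower left of 0, and more of them lie above the dashed line of equal size on the right, where HBL-1 minus K422 is the larger.

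MHC class II genes and CD74 formed the list with the highest share of calls, 13 of 17 members kept higher and 0 lower, against 1.17% and 0.558% of all genes. This list was chosen by the study on these samples, so the count is not independent evidence of its direction. All 17 differences lay above 0 in both scan pairs, from 0.35 (HLA-DPB2) to 1.10 (HLA-DQB1), with a median of 0.55 against 0.01 over all genes kept. The other 4, HLA-DRB1 (0.49), HLA-DOA (0.48), HLA-DPA1 (0.38) and HLA-DPB2, passed the adjusted p but not the limit of 0.5. Regardless of size, 17 of 17 passed the adjusted p on the higher side, against 5.83% of genes kept. The median response of the list was 0.55 (OCI-Ly3), 0.40 (HBL-1), -0.14 (DB) and -0.14 (K422). HLA-DRB6, the remaining member, did not pass the brightness rule.

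HLA-DQB1, a beta chain, had a fitted difference of 1.10 ± 0.10 (SE, adjusted p = 2.70e-06), and HBL-1 minus K422, where it was measured, was 0.67 (adjusted p = 0.00657). Its arrays ran from -1.24 to 0.00 in DB (median -0.65), from -0.18 to -0.10 in K422 (median -0.13), from 0.16 to 0.91 in HBL-1 (median 0.57) and from 0.67 to 1.16 in OCI-Ly3 (median 0.92). The arrays of the subtypes did not overlap, although the gene was dim (not well above background) in both channels of DB. Non-overlapping arrays occurred for 0.168% of genes kept. HLA-DMA, the alpha chain of the peptide loader, did not overlap either, with a difference of 0.53 ± 0.05 (adjusted p = 1.41e-06), GCB arrays between -0.23 and 0.29 and ABC arrays between 0.32 and 0.82. HLA-DMB, its partner chain, differed by 0.69 ± 0.06 (adjusted p = 1.89e-06).

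CD74 differed by 0.60 ± 0.08 (adjusted p = 0.000129). Its arrays lay between 0.12 and 0.38 in DB, between -0.11 and 0.47 in K422, between 0.70 and 1.31 in HBL-1 and between 0.35 and 0.91 in OCI-Ly3, with a small overlap between the subtypes. HLA-DRA, the shared alpha chain of HLA-DR, differed by 0.55 ± 0.11 (adjusted p = 0.00309), with medians of -0.22 (DB), -0.10 (K422), 0.39 (HBL-1) and 0.42 (OCI-Ly3). HLA-DOB, a chain of the HLA-DM inhibitor, rested mainly on scan 2, since HBL-1 minus K422 was 0.92 and OCI-Ly3 minus DB 0.17. HLA-DPB1 leaned the other way, with 0.24 and 0.83. The HLA-DRB genes are near-identical, so their probes may share transcripts and do not count as separate measurements. DB varied most, and without DB replicate 2 the count of calls in the list was 7, without HBL-1 replicate 1 it was 9, and with slide as a fixed block it was 4, with list medians of 0.46, 0.51 and 0.47. Of the 13 calls 3 remained with siFOXP1 #1 alone, 6 with siFOXP1 #2 alone, 7 with normexp and loess, 3 with normexp and median centering (CD74 and HLA-DRA among those lost) and 4 when each scan pair had to be called. The list median was 0.49, 0.62, 0.49 and 0.41 in the first 4 of these. With each replicate as 1 value HLA-DQA1 (adjusted p = 0.0594), HLA-DQA2, HLA-DRB3, HLA-DRB4 and HLA-DRB5 were no longer called, and with the replicate number as a block HLA-DRB4 was not (adjusted p = 0.05005).

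**Figure D3:**
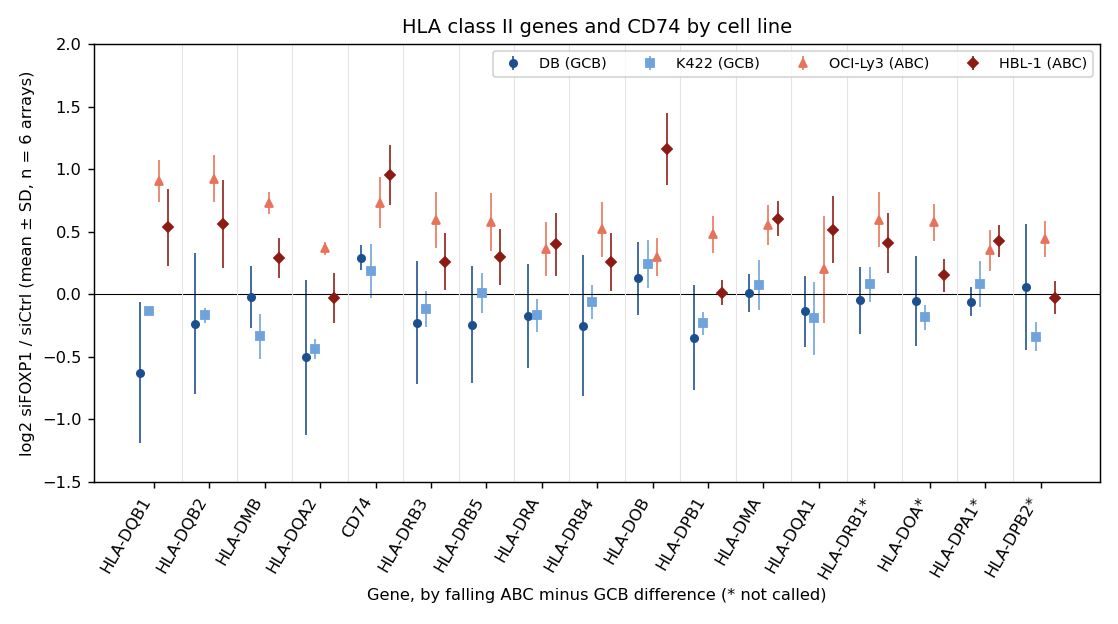
Log2 response of the 17 MHC class II genes and CD74 kept (x axis, by falling difference) in each line (y axis), as mean ± SD of 6 arrays. The ABC lines (red) lie above the GCB lines (blue) for most genes, while the SD is widest in DB and HLA-DPB1, HLA-DQA2 and HLA-DPB2 in HBL-1 lie near 0.

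Promoter windows are shown for HLA-DMA, HLA-DMB and HLA-DQB1, 3 of the 4 called genes that hold the X box letters (HLA-DRB5, one of the near-identical HLA-DRB genes, is not shown), and for CD74, which was called and holds neither motif as searched. They run from 150 to 51 bases before the start of the gene (RefSeq, GRCh38.p14, minus strand, 5′ to 3′), and capitals mark the letters of the X box (a pattern of 11 letters with 3 of them free) and the Y box (CTGATTGG), searched on both strands. The windows are chr6:32953148-32953247, chr6:32941079-32941178, chr6:32666708-32666807 and chr5:150412961-150413060 in that order.
HLA-DMA: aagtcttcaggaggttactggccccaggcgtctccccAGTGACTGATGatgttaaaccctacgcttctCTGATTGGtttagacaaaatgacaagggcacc
HLA-DMB: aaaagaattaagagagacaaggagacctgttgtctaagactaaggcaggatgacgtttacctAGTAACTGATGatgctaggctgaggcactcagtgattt
HLA-DQB1: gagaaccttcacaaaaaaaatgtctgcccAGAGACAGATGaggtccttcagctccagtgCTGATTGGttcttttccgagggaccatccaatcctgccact
CD74: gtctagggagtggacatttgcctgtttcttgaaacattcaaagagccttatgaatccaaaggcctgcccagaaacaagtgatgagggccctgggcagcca

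Over the whole promoter windows of 300 bases, 13 of the 17 members had a RefSeq entry, of which 5 held the X box letters and 6 the Y box letters. The shares among the genes kept with an entry were 0.601% and 5.81%, and among all 27305 promoters 0.872% and 4.16%. The forkhead letters TGTTTAC stood in 0 of the 13, in 5 of 103 promoters of higher genes (4.85%), in 1 of 50 of lower genes (2%) and in 2.19% of the genes kept. TATTTGT stood in 0 of the 13, in 2 of the 103 (1.94%), in 1 of the 50 and in 1.62% of the genes kept. Such a match is a description of the letters only.

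The list of MHC class II transcription and peptide loading factors had 0 of 18 members called, with a median of 0.02. CIITA differed by 0.29 (adjusted p = 0.449), with line values of 0.39 (DB), -0.33 (K422), 0.13 (HBL-1) and 0.51 (OCI-Ly3). Among the loading enzymes IFI30, a lysosomal thiol reductase, differed by 0.44 (adjusted p = 0.00105), under the limit of 0.5. RFX5 and NFYA, which bind the X and Y boxes, differed by -0.02 and 0.01. Of 22 MHC class I presentation genes 0 were called, and the median was 0.08. T-cell costimulation genes had 2 of 23 called, ICOSLG, the ligand of ICOS (0.84 ± 0.12, adjusted p = 0.000173), and SLAMF1, a signaling lymphocyte receptor (0.93 ± 0.19, adjusted p = 0.00451, but 0.17 and 0.14 with normexp as given above). ICOSLG rested on scan 2, with 1.67 in HBL-1 minus K422 and 0.02 in OCI-Ly3 minus DB, and was -0.23 within slide 2. With the mean over the probes of ICOSLG the difference was 0.47 and was not called.

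The products of Fc receptor-like genes tune B-cell receptor signals. Their list, which also holds FAIM3, had 4 of 8 members called higher and 0 lower, with a median of 0.75. The shares of all genes kept were 1.17% and 0.558%. FCRL5 had a fitted difference of 2.36 ± 0.20 (adjusted p = 9.30e-07), whose size rests in part on K422, where the gene was dim in both channels. OCI-Ly3 minus DB, where it was measured, was 1.53 (adjusted p = 0.00535). Its arrays ran from -0.52 to 1.34 in DB (median -0.04), from -0.57 to 0.78 in K422 (median -0.19), from 2.89 to 3.61 in HBL-1 (median 3.15) and from 1.29 to 2.10 in OCI-Ly3 (median 1.79). Only 1 DB array reached the OCI-Ly3 range.

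FCRL3 had a fitted difference of 2.14 ± 0.15 (adjusted p = 1.10e-07), and HBL-1 minus K422, where it was measured, was 1.68 (adjusted p = 5.59e-05). Its array medians were 0.01 (DB), 0.98 (K422), 2.66 (HBL-1) and 2.80 (OCI-Ly3). Its siCtrl channel was not well above background in OCI-Ly3, where the response has only a lower bound, at least 1.36-fold. FCRL2 (0.73 ± 0.08, adjusted p = 8.94e-06) and FAIM3, the IgM Fc receptor (0.77 ± 0.09, adjusted p = 3.11e-05), were led by HBL-1, with 1.13 and 1.32 in HBL-1 minus K422 against 0.33 and 0.22 in OCI-Ly3 minus DB. FAIM3 was -0.03 within slide 2. The probes of FCRL5, FCRL3 and FCRL2 and of the design entry THC2767659 (0.61) form one run on chromosome 1.

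Cytokines and their receptors had 6 of 31 members called higher and 1 lower, against 1.17% and 0.558% of all genes kept, with a median of 0.22. LTB, lymphotoxin beta, a membrane ligand of the TNF family and an NF-kB target, had the largest higher difference among genes measured in every line, 1.61 ± 0.10 (adjusted p = 2.03e-08). Its arrays ran from -0.44 to 0.08 in DB (median -0.17), from -0.98 to 0.20 in K422 (median -0.78), from 1.19 to 1.98 in HBL-1 (median 1.68) and from 0.75 to 0.93 in OCI-Ly3 (median 0.82). No ABC array reached the range of the GCB arrays. LST1, whose probe lies 7.90 kb away, was also called (0.73, adjusted p = 0.0415). LST1 was not bright in every line, with 1.12 in HBL-1 minus K422, 0.34 in OCI-Ly3 minus DB and -0.22 within slide 2.

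TNFRSF13C, the BAFF receptor, differed by 0.79 ± 0.06 (adjusted p = 1.87e-07), and THC2553406, a design entry 3.14 kb from it, by 1.05 ± 0.08 (adjusted p = 2.73e-07). Scan 2 led for both, with 1.27 and 1.62 in HBL-1 minus K422 against 0.30 and 0.48 in OCI-Ly3 minus DB. Within slide 2 they were 0.01 and 0.14. IL13RA1, a chain of the IL-13 receptor, differed by 1.87 ± 0.37 (adjusted p = 0.00346), with DB arrays from -2.62 to 1.81 and a siCtrl channel not well above background there, and was -0.26 within slide 2. IL2RG, the common gamma chain (0.56, adjusted p = 0.00638), IFNGR1, a chain of the interferon gamma receptor (0.54, adjusted p = 0.00679), and EBI3 (0.50, adjusted p = 0.00464) completed the higher members. EBI3 was below 0 under both normexp settings. The lower member was TNFRSF21, a death receptor (-0.81 ± 0.10, adjusted p = 3.24e-05). It changed in K422 alone among the lines, where arrays ran from 1.59 to 1.94 against -0.81 to 0.63 in the other lines, and OCI-Ly3 minus DB was -0.01.

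Of 33 NF-kB subunits and targets 4 were called higher and 0 lower, against 1.17% and 0.558% of all genes kept, with a median of 0.14. Beside LTB and EBI3 they were MAP3K8, a kinase of the NF-kB and ERK routes (0.58 ± 0.09, adjusted p = 0.000475), and CD44, the hyaluronan receptor (0.83 ± 0.13, adjusted p = 0.000715). CD44 arrays had medians of -0.65 (DB), -0.72 (K422), 0.18 (HBL-1) and 0.31 (OCI-Ly3), so the GCB lines lay farther from 0 than the ABC lines. The siCtrl channel of CD44 was not well above background in K422, OCI-Ly3 minus DB was 0.91 (adjusted p = 0.0116), and the difference was -0.01 under normexp with median centering.

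B-cell receptor signaling had 1 of 46 members called in each direction, against 1.17% higher and 0.558% lower of all genes kept. A single call in a list of this size says little about the list. FGR, a Src family kinase, was higher by 1.07 ± 0.13 (adjusted p = 4.22e-05), with GCB arrays between -1.30 and -0.11 and ABC arrays between -0.01 and 1.45. PAG1, an adaptor that recruits the kinase inhibiting Src family members, was lower by 0.83 on the log2 scale (difference -0.83 ± 0.15, adjusted p = 0.00185). PAG1 arrays ran from -0.56 to 1.15 in DB, from -0.02 to 0.65 in K422, from -1.39 to -0.48 in HBL-1 and from -0.33 to -0.09 in OCI-Ly3, so that DB overlapped both ABC lines and K422 overlapped neither. LCK, another Src family kinase, best known in T cells, was higher by 1.18 ± 0.05 (adjusted p = 2.34e-10), the lowest adjusted p among the genes named here.

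The LCK arrays ran from -0.24 to 0.00 in DB, from -0.90 to -0.51 in K422, from 0.50 to 1.74 in HBL-1 and from 0.02 to 0.71 in OCI-Ly3. They did not overlap between subtypes, and the values in HBL-1 were higher with siFOXP1 #2 than with siFOXP1 #1. LCK was well above background in the siCtrl channel on 6 of 6 arrays of every line. CD3D and CD3G were above background in K422 alone, as given above, and their part in the LCK difference was not tested.

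**Figure D4:**
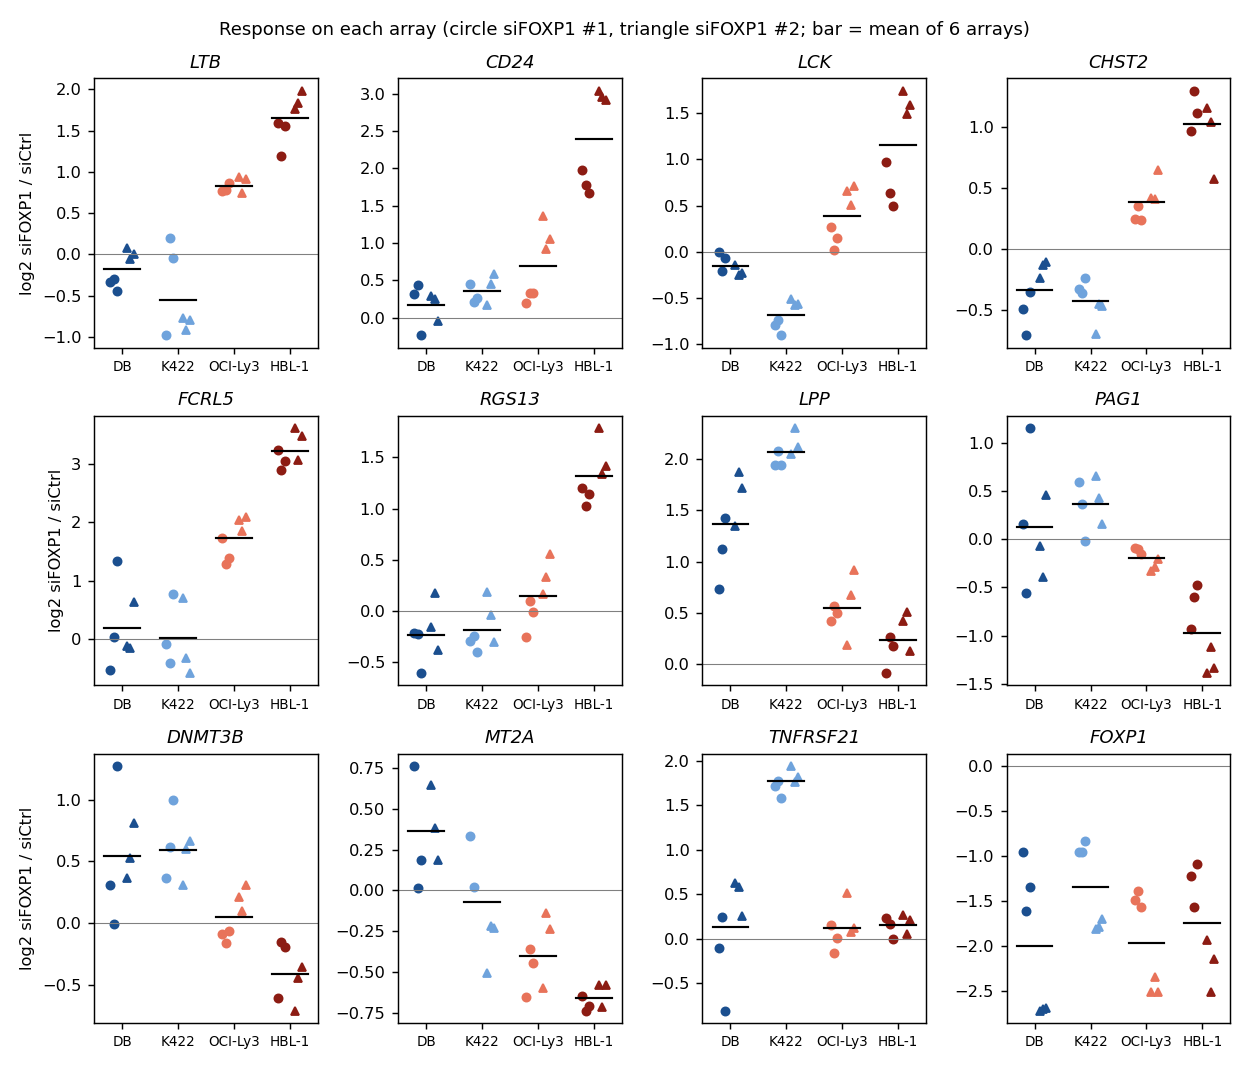
Log2 response on each of the 24 arrays (y axis) for 11 called genes and FOXP1, by line (x axis), with circles for siFOXP1 #1, triangles for siFOXP1 #2 and bars for the mean of 6 arrays. LTB, LCK and CHST2 separate the subtypes on all arrays, TNFRSF21 stands apart in K422, and FOXP1 is below 0 throughout.

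Calls among germinal center and activation genes went in both directions, though the GCB and the ABC signature each had only 1 lower call. RGS13, a regulator of G-protein signaling in germinal center B cells, was higher by 0.94 ± 0.08 (adjusted p = 1.02e-06), and DENND3 by 0.55 ± 0.05 (adjusted p = 3.12e-06).

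MYBL1, a germinal center transcription factor, was lower (-0.54 ± 0.11, adjusted p = 0.00420), with K422 arrays from 1.03 to 1.16. The GCB signature had 3 of 20 genes called higher, RGS13 and DENND3 among them, and 1 lower, MYBL1. The ABC signature had 1 of 23 called in each direction, CD44 and the pro-apoptotic BMF (-0.56 ± 0.15, adjusted p = 0.0293). The shares over all genes kept were 1.17% higher and 0.558% lower. Of the B and plasma cell fate list 3 of 32 were called higher, among them CD27 (0.57, adjusted p = 0.00419) and CD38 (0.58, adjusted p = 0.00523), the last not well above background in K422. CD27 was 1.14 in HBL-1 minus K422 and 0.01 in OCI-Ly3 minus DB. MS4A1, which encodes CD20, was higher by 0.54 ± 0.07 (adjusted p = 5.75e-05), the only one called of 7 B-cell markers. Immediate early genes had 2 of 28 called, the activation marker CD69 (1.39 ± 0.27, adjusted p = 0.00289) and EGR1 (0.89 ± 0.25, adjusted p = 0.0359), which were -0.24 and -0.47 within slide 2. With the replicate block EGR1 (adjusted p = 0.0617) and BMF (adjusted p = 0.0707) were no longer called.

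Of 47 interferon-stimulated genes 4 were called higher and 0 lower, against 1.17% and 0.558% of all genes kept, with a median of 0.10. They were OAS1, an RNA-sensing synthetase (0.79 ± 0.16, adjusted p = 0.00502), EPSTI1 (0.67 ± 0.08, adjusted p = 5.54e-05), GBP4 (0.64 ± 0.11, adjusted p = 0.00126) and IFITM1 (0.62 ± 0.07, adjusted p = 1.04e-05). IFITM1 was carried by HBL-1, where arrays ran from 0.70 to 1.30 against -0.37 to 0.27 in the other lines. Adhesion genes had 3 of 25 called higher, CD24, CD44 and HIP1R, and 1 lower, LPP. CD24, a surface glycoprotein whose gene has near-identical copies, differed by 1.28 ± 0.08 (adjusted p = 2.03e-08), with array medians of 0.27 (DB), 0.36 (K422), 2.45 (HBL-1) and 0.62 (OCI-Ly3).

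HIP1R, an endocytic adaptor that links clathrin to actin, was higher by 0.64 ± 0.06 (adjusted p = 3.30e-06). Its array medians were -0.03 (DB), 0.29 (K422), 1.07 (HBL-1) and 0.56 (OCI-Ly3). With the mean over the probes of HIP1R the difference was 0.45 and was not called. Also higher were the actin-severing GSN (0.65 ± 0.05, adjusted p = 1.87e-07), LSP1 (0.73 ± 0.10, adjusted p = 0.000107) and ARHGEF6 (0.56 ± 0.16, adjusted p = 0.0332). ARHGEF6 lost its call with the replicate block (adjusted p = 0.0771), and LSP1 was 0.00 in OCI-Ly3 minus DB.

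Among genes measured in every line, the largest higher differences outside these lists included CHST2, a sulfotransferase (1.08 ± 0.06, adjusted p = 1.92e-08). CHST2 arrays ran from -0.70 to -0.10 in the GCB lines and from 0.24 to 1.30 in the ABC lines. RASAL1, a GTPase-activating protein for Ras, differed by 1.07 ± 0.12 (adjusted p = 1.64e-05), and DTX1, 2.06 kb away, by 0.79 (adjusted p = 0.000754). The scans weighed differently for these neighbors, since RASAL1 was led by HBL-1 minus K422 (1.90 against 0.24) and DTX1 by OCI-Ly3 minus DB (1.21 against 0.37). SLC6A16, a transporter, did not overlap between subtypes (0.96 ± 0.05, adjusted p = 6.05e-09), and the design entry AK097351, 41.8 kb away, was also higher (1.09 ± 0.15). KCNH2, a potassium channel (0.94 ± 0.12, adjusted p = 5.68e-05), TMEM156 (1.02 ± 0.09), C1orf38 (1.11 ± 0.15), RUNDC2C (1.03 ± 0.14) and TP53INP1, a p53 target (0.95 ± 0.16, adjusted p = 0.000820), completed the set. TP53INP1 was -0.03 within slide 2.

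LHFPL2, not bright in every line, differed by 1.96 ± 0.09 (adjusted p = 7.26e-10) with HBL-1 arrays from 3.28 to 4.16. Single calls of other lists were BIK, a pro-apoptotic BH3-only protein (0.72), CD180, a TLR-like receptor of B cells (0.62), MAP1LC3A, an autophagy protein (0.75), SLC2A3, a glucose transporter (0.52), and CSF1R (0.55). CSF1R is a myeloid marker whose K422 arrays ran from -1.74 to -0.32. BIK and MAP1LC3A were -0.12 and -0.30 within slide 2. With the replicate block CD180 (adjusted p = 0.0587) and SLC2A3 (adjusted p = 0.0835) were no longer called.

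Genes with a lower response in the ABC lines were led by the LPP locus. LPP, an adhesion scaffold, differed by -1.33 ± 0.09 (adjusted p = 1.10e-07). Its arrays ran from 0.73 to 1.87 in DB (median 1.38), from 1.94 to 2.30 in K422 (median 2.06), from -0.08 to 0.51 in HBL-1 (median 0.23) and from 0.19 to 0.92 in OCI-Ly3 (median 0.53). LPP was thus above 0 on all GCB arrays, and the ABC arrays overlapped only the low end of DB.

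The design entries THC2551927 (-1.56 ± 0.16), AK123506 (-1.70 ± 0.10) and AK055214 (-1.61 ± 0.10) share the locus, with probes from chr3:190074950 to 190090571 in hg18, a span of 15.6 kb. Their adjusted p were 7.39e-06, 2.03e-08 and 3.47e-08, and AK123506 did not overlap between the subtypes. AL080232, also on chromosome 3, rose in both subtypes but less in ABC (-1.69 ± 0.21, adjusted p = 7.08e-05). Whether the probes of the locus read 1 transcript was not tested.

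Metallothioneins, cysteine-rich metal-binding proteins, were singled out after their values were seen, since 7 neighboring members on chromosome 16 were called lower. They were MT2A (-0.68 ± 0.09, adjusted p = 0.000124), MT1G (-0.59), MT1X (-0.59), MT1B (-0.58), MT1H (-0.55), MT1E (-0.51) and MT1L (-0.50). MT1A (-0.08, adjusted p = 0.365) and MT1F (0.10, adjusted p = 0.767) did not pass. The copies are near-identical, so the 7 are not separate measurements. MT2A arrays ran from 0.01 to 0.76 in DB, from -0.50 to 0.33 in K422, from -0.74 to -0.58 in HBL-1 and from -0.65 to -0.14 in OCI-Ly3. The differences were larger in size with siFOXP1 #1 (-0.84 for MT2A and -0.83 to -0.72 for the other 6) than with siFOXP1 #2 (-0.52 for MT2A and -0.39 to -0.28). The other 6 were not called with siFOXP1 #2 alone, and none of the 7 was called with normexp and median centering (-0.44 to -0.28).

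DNMT3B, a de novo DNA methyltransferase, was lower (-0.75 ± 0.12, adjusted p = 0.000711), with array medians of 0.45 (DB), 0.61 (K422), -0.40 (HBL-1) and 0.02 (OCI-Ly3). BLVRA, biliverdin reductase (-0.71 ± 0.07, adjusted p = 2.94e-06), C15orf39 (-0.68 ± 0.09), TREML2 (-0.65 ± 0.11), the cAMP phosphodiesterase PDE4A (-0.64 ± 0.12) and C1orf54 (-0.61 ± 0.09) were lower too. CDKN2D, an inhibitor of the cyclin D kinases, was lower (-0.58 ± 0.10, adjusted p = 0.00105), the 1 call among 18 G1 cyclins and inhibitors. RGS12 was lower (-0.80 ± 0.16, adjusted p = 0.00306) while not well above background in K422. The ATF4 and amino acid response list had 2 of 42 called lower, against 0.558% of all genes kept, and a median of -0.21. They were PHGDH, the first enzyme of serine synthesis (-0.59 ± 0.16, adjusted p = 0.0239), and VLDLR (-0.74 ± 0.22, adjusted p = 0.0422). VLDLR was not called with the replicate block (adjusted p = 0.0944) and was not well above background in DB.

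Small differences of one sign marked the cell cycle and replication list, of which 0 of 65 genes reached the limit of 0.5. All 65 lay below 0, from -0.37 to -0.02, against 48.4% of the genes kept, and 55 lay below 0 in both scan pairs against 27.5% of the genes kept. Regardless of size 25 of the 65 passed the adjusted p on the lower side, against 4.93%. Among them were CCNB2, a mitotic cyclin (-0.37, adjusted p = 0.000117), TOP2A, a topoisomerase (-0.36, adjusted p = 1.53e-05), and CENPF, a kinetochore protein (-0.37, adjusted p = 0.00150), while MCM2 of the replicative helicase stood at -0.10 (adjusted p = 0.756).

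The list median was -0.22, with line medians of -0.28 (HBL-1), -0.13 (OCI-Ly3), -0.03 (DB) and 0.03 (K422). It was -0.08 with siFOXP1 #1 alone, -0.36 with siFOXP1 #2 alone and -0.13 with slide as a fixed block. Replication-dependent histones also lay below 0 for 54 of 54 genes (median -0.12), but 0 passed the adjusted p, 19 lay below 0 in both pairs, and OCI-Ly3 minus DB had a median of 0.06 against -0.41 in HBL-1 minus K422. Histone probes can share near-identical transcripts.

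Of the 40 lists 21 had a higher call, 9 a lower call and 17 none. Those with no call included respiratory chain, cytosolic ribosomal proteins, ribosome biogenesis, sterol synthesis, JAK-STAT, chemokines and Wnt genes. As 1.17% of all genes kept were called higher and 0.558% lower, a list with 1 call is not read as differing.

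**Figure D5:**
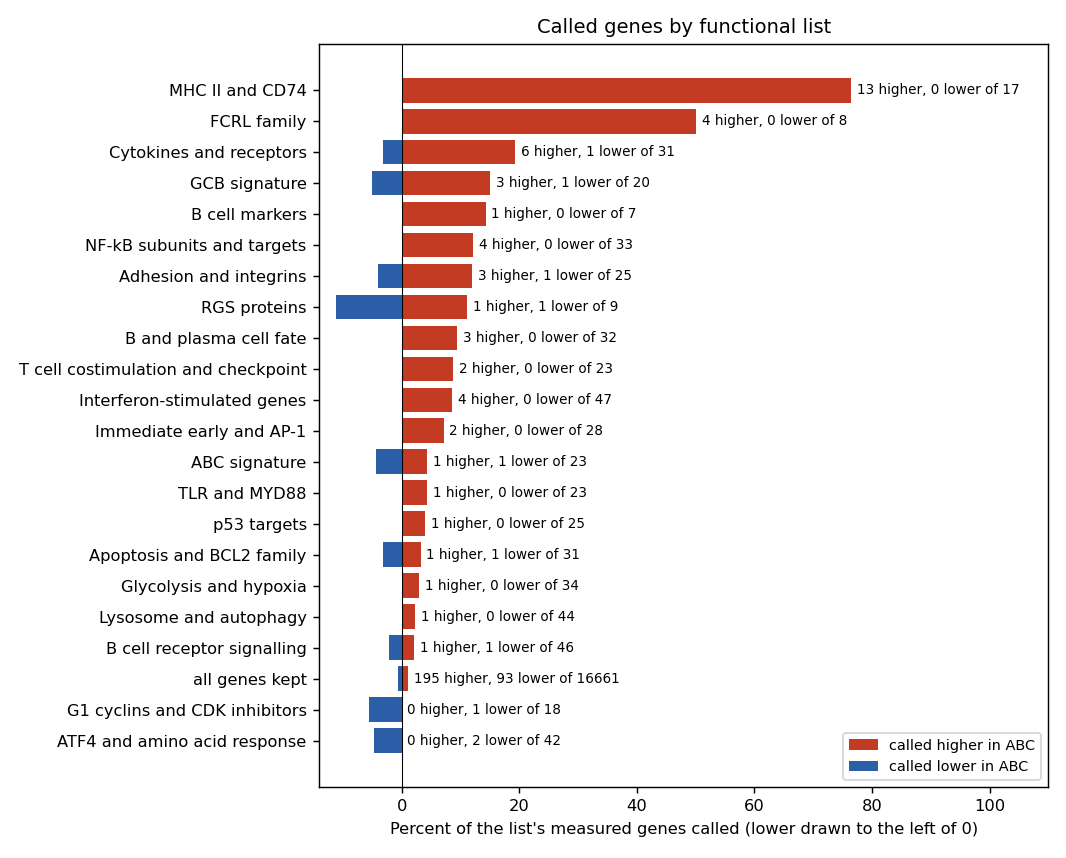
Percent of each list's kept genes called higher (red) or lower (blue, drawn left of 0) in ABC, for the lists reported here with at least 7 genes kept and a call, with the counts printed and all genes kept as reference. MHC class II with 13 of 17 and the FCRL list, which also holds FAIM3, with 4 of 8 have the longest bars.

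Some called genes lay near each other. In hg18, 191 higher genes with a position fell into 157 loci at a distance limit of 200000 bases, 19 of which held at least 2 genes (53 genes in all), and 93 lower genes fell into 82 loci, 4 of which did (15 genes, most of them the metallothioneins and the LPP probes). How often all genes kept lie this near each other was not counted, so these numbers describe positions only. Some loci pair a gene with a design entry, such as RCSD1 with U09197. The largest locus was the HLA class II region with 13 called entries. They include the design entries AA742526, AB362555 and ENST00000383121, so they are not the 13 calls of the MHC class II list, which include CD74. Also higher were 2 design entries near the FOXP1 probe, AK022443 (0.72, adjusted p = 0.000625) at 192.5 kb and THC2639689 (0.82, adjusted p = 0.00113) at 309.9 kb. Their responses were 0.42 and 0.38 (DB), -0.11 and -0.14 (K422), 0.86 and 0.89 (HBL-1), and 0.89 and 0.98 (OCI-Ly3). Both stood above 0 in DB and the ABC lines, whereas the probe standing for FOXP1 fell in all 4 lines. Whether these entries lie within the FOXP1 gene or read its transcripts was not tested, so they are not counted as separate genes.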

How the data were processed

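RNA of 24 cultures silenced for FOXP1 was compared with siCtrl RNA on 2-color Agilent arrays. Per the labels, Cy3 carried siFOXP1 and Cy5 siCtrl RNA on every array, with no dye swap. A constant dye effect of a probe enters each line's response and cancels in a difference between lines. The authors deposited Feature Extraction output (10.5.1.1 for scan 1, 10.7.3.1 for scan 2), which per the file headers gives each channel's intensity after background subtraction. Per the file headers the authors' software also normalized the dyes within each array, linearly and by loess, and took the log10 ratio, Cy5 being the numerator. The authors also deposited a matrix of log2 values, made in GeneSpring GX according to the methods. For 229 of the 288 called genes it equals the scanner ratio on all 24 arrays within 0.001, so it is no separate measurement of these.

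Turning the sign and changing the base to 2 gave log2 of siFOXP1 over siCtrl. Of 45015 spots per array, 1639 control spots and 113 to 469 outlier spots were left out. The brightest of a gene's probes stood for it, named as in the array design. Ratios near background are uncertain, and Feature Extraction sets some to 0. Precision within a line is limited by its 6 arrays, and that of a subtype difference by the 2 lines of each subtype.

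For 30138 genes, 8 group means (line by siRNA) were fitted in limma 3.58.1 under R 4.3.3, with Benjamini-Hochberg adjustment over all of them. The fit was run on simulated data with independent noise on each array and equal effects in both ABC lines. Those data held no variation between lines of a subtype, no shared siCtrl and no slide effect. They do not test the calls reported here. Genes were named by rule. The rule took the 12 largest called differences in each direction among genes bright in every line whose ABC arrays all lay on one side of the GCB median. It added up to 4 called genes per list, the MHC class II list, FOXP1, and the 3 largest in each direction among genes not bright in every line. The members and lists were chosen with earlier results of these data known.

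Replicate numbers pair the siFOXP1 #1 and #2 arrays of a line, whose labels name the same siCtrl sample. Their deviations from the group means correlated at 0.0955 (OCI-Ly3 replicate 2) to 0.539 over the genes kept. The controls are thus shared between the siRNAs of a replicate. Alternatives were other background corrections, filters, blocks, tests, thresholds and leaving out each replicate. The slide as a fixed block was added after seeing the data. Results for 1 gene and 1 list are not reported here.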

Additional observations from a re-analysis of the deposited data

Results flagged for a closer look

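Single arrays stood apart from the other 5 of their line in 8 of 171 groups of named genes, where chance gives 8.55. In DB siFOXP1 #1 replicate 3 they were C1orf38 (1.29, others -0.52 to 0.15) and C1orf54 (0.657, others -0.55 to -0.10). HLA-DQA1 stood at -0.703 in DB siFOXP1 #2 replicate 3 (others -0.14 to 0.02) and HLA-DRA at -0.0524 in OCI-Ly3 siFOXP1 #2 replicate 3 (others 0.34 to 0.55). HLA-DRB6 stood at -0.739 in K422 siFOXP1 #1 replicate 1 and at -0.0451 in HBL-1 siFOXP1 #2 replicate 3, where all others were exactly 0. RASAL1 stood at 1.02 in OCI-Ly3 siFOXP1 #2 replicate 1 (others -0.26 to 0.19) and TMEM156 at 0.763 in K422 siFOXP1 #1 replicate 1 (others 0.03 to 0.27).

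The scan pairs themselves were compared by limma's test of HBL-1 minus K422 against OCI-Ly3 minus DB. They differed in size for 12 of 24 genes. These 24 had the largest differences among genes bright in every line whose ABC arrays all lay on one side of the GCB median. Genes such as FCRL5 and FCRL3 were therefore not among them. The gap was 1.66 for RASAL1, 1.3 for LCK, 1.29 for RUNDC2C, 1.19 for LTB, 1.15 for THC2553406, 0.905 for TMEM156 and 0.725 for CHST2, all higher in HBL-1 minus K422. C1orf38 had -1.38, so OCI-Ly3 minus DB (1.81) was the higher. Among lower genes TNFRSF21 had -1.6, LPP -1 and BLVRA -0.764, larger in size in HBL-1 minus K422, and C15orf39 had 0.992, larger in OCI-Ly3 minus DB (-1.18 against -0.18). In all, 78 of the 288 called genes had scan pairs that differed, and the share among all genes kept was not counted. Scan and line pair cannot be told apart here.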

How the results depend on the processing

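The 195 higher and 93 lower calls came to 85 and 17 with normexp and loess (83.3% higher against 67.7%), 58 and 21 with normexp and median centering, 356 and 232 with no filter on dim probes, and 109 and 34 when both channels had to be bright in every line. They were 67 and 33 with siFOXP1 #1 alone (53 and 21 shared with those reported), 239 and 102 with siFOXP1 #2 alone (126 and 40 shared), 29 and 8 at a log2 limit of 1, 45 and 13 when each scan pair had to be called, and 0 and 0 over line means. Lower calls were 61 with the siRNAs averaged (12 values) and 50 in the methods' t-test, which called 138 higher after Benjamini-Hochberg adjustment. Before adjustment and without the sign rule for the scan pairs, 386 genes in either direction passed its p and fold limits. Slide as a fixed block gave 248 and 204 calls (54.9% higher), of which 96 and 44 were shared with those reported. The replicate block, which pairs the siRNAs of a replicate, gave 170 and 72 calls and, of the genes named here, ended the calls of ARHGEF6, BMF, CD180, EGR1, HLA-DRB4, SLC2A3 and VLDLR. OCI-Ly3 minus DB (244 calls) gave 133 and 46 with the normexp settings, 429 with no filter, 139 with the every-line filter, 109 over 12 values, 82 and 101 with siFOXP1 #1 and #2, 51 at a limit of 1 and 521 with slide fixed. HBL-1 minus K422 (804 calls) gave 403, 197 and 1307 under the first 3 of these, 474 over 12 values, 160 with siFOXP1 #1 and 171 at a limit of 1. Leaving out each replicate gave 170 to 251 higher and 60 to 121 lower genes, the 60 without HBL-1 replicate 1, and 185 to 662 calls in OCI-Ly3 minus DB, the 662 without DB replicate 3, and 588 to 1055 in HBL-1 minus K422. EBI3 turned to -0.0019 with normexp and loess and to -0.25 with normexp and median centering, and CD44 to -0.010 with the latter. Of 86 named called genes 57 stayed called in every leave-one-out fit and 14 were lost in at least 4 of 12, namely ARHGEF6, BMF, CD180, CSF1R, EBI3, EGR1, HLA-DQA1, HLA-DRB4, MT1E, MT1L, PHGDH, SLC2A3, TNFRSF21 and VLDLR. With the mean over a gene's probes in place of its brightest probe, the calls were 188 and 87. Of the 86 named genes 9 were then not called, namely ARHGEF6, EBI3, HIP1R, HLA-DQA1, HLA-DQA2, ICOSLG, MT1G, MT1H and TNFRSF21. The FOXP1 difference ran from -0.28 to -0.09 and was called in no alternative. The causes were not tested. Of the 86, 36 were not called with normexp and loess and 52 with normexp and median centering. The filter on both channels in every line took out the 27 that were not bright in every line.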
